A study of Mus musculus with 4 samples.

Results

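The miRNAs described here are the arms of miR-199a, miR-199b, miR-214, miR-143 and miR-145, which are abundant in fibroblasts, pericytes and smooth muscle. They were chosen by name among the mouse miRNA spots of the array, and 9 arms of the 1023 mouse miRNAs measured carried these names. Of these 9 arms, 4 were well above background on at least 1 array, namely mmu-miR-199a-3p, mmu-miR-199a-5p, mmu-miR-199b-5p and mmu-miR-214-3p (the prefix marks mouse and is left out below), and the other 5 were so on none. Total RNA of 4 mouse cell lines was hybridised, 1 array per line, and no animal or age is named for any of them. NSC are neural stem cells and OPC are oligodendrocyte precursor cells. NSCL61 are glioma-initiating cells derived from neural stem cells, and OPCL61 are glioma-initiating cells derived from oligodendrocyte precursor cells. No drug or other treatment is named for any line, all were cultured by the same cited protocol, and how the glioma-initiating lines were made is not given in the sources used here. Each line is 1 culture on 1 array, so that errors below are spreads over replicate spots of an array and no test between lines was made.

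A miRNA hairpin gives a 5p arm and a 3p arm, and the arm that is loaded into an Argonaute protein pairs with messenger RNAs mainly through its seed, bases 2 to 8. The miR-199a and miR-214 hairpins on mouse chromosome 1 are made from a shared noncoding transcript, Dnm3os, which runs antisense within the dynamin gene Dnm3 and is known for its activity in mesenchyme of the developing limb, face and skeleton. miR-143 and miR-145 come from another shared transcript, which serves the contractile state of vascular smooth muscle, and in brain these miRNAs are mostly ascribed to the vessel wall rather than to neural cells. miR-199a-3p represses MET and MTOR in human cells.

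The mature sequences of the arms that carry the results are shown with the seed in capitals, because the seeds separate arms that share a name and because the 3p arms of miR-199a and miR-199b are the same molecule. They are taken from RefSeq (GRCm38.p6), 5′ to 3′. A mature entry was matched for miR-199a-3p, miR-199b-3p, miR-199a-5p, miR-214-3p and miR-214-5p.
miR-199a-3p: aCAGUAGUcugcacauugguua
miR-199b-3p: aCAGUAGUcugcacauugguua
miR-199a-5p: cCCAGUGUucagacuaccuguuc
miR-214-3p: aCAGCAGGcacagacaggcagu
miR-214-5p: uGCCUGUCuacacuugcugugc
The 3p arms of miR-199a and miR-199b matched at 22 of 22 bases, so that the signal of miR-199a-3p below is a sum over the hairpins Mir199a-1, Mir199a-2 and Mir199b. Among the RefSeq mature miRNAs compared, no other one shared the seed of miR-199a-5p or of miR-214-5p. No mature entry of miR-199b-5p was among those compared. The target of its brighter probe, given below, has the same seed as miR-199a-5p, so that this seed is not unique among the arms. The seed of miR-214-3p was shared by 1 of the miRNAs compared, miR-761, which was on the array and was well above background on none of the 4 arrays.

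Each of the 4 detected arms had a pair of probes that differed by 1 base in length, and the longer one was the brighter. The brighter probes are shown 5′ to 3′ as deposited. The capital marks the base that sets the miR-199b-5p probe apart from miR-199a-5p.
miR-199a-3p probe: taaccaatgtgcagactact
miR-199a-5p probe: gaacaggtagtctgaacac
miR-199b-5p probe: gaacaggtagtctAaacactgg
miR-214-3p probe: actgcctgtctgt
Counted from 1 at the 5′ end of miR-199a-5p, the target of the miR-199b-5p probe differs from miR-199a-5p by 1 substitution, C10U, outside the seed. The full target of the miR-199b-5p probe was found in the hairpin Mir199b, and that of the miR-199a-5p probe in Mir199a-1 and Mir199a-2. How far the probes of these 5p arms bind each other's target was not tested. The miR-214-3p probe is 13 bases long and pairs with bases 10 to 22 of the miRNA. On the mm9 annotation in the scanner files, the sites of these probes lie on the plus strand at chr1:164147979-164147997 for miR-199a-5p, at chr1:164148016-164148035 for miR-199a-3p and at chr1:164153578-164153590 for miR-214-3p. The last of these lies 5562 bases from the miR-199a-3p site, counted between the starts of these sites. All 3 sites fall in noncoding hairpins within the spans of Dnm3 and Dnm3os. The miR-199b-5p probe maps to chr2:32174006-32174027 on the plus strand, in the hairpin Mir199b within the span of Dnm1. The remaining hairpin, Mir199a-1, lies on chromosome 9 within the span of Dnm2.

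The arrays differed in brightness. Between 139 and 228 miRNAs were well above background per line, and the 75th percentile of the unscaled signal over 182 probes seen on every array was 857 units in NSCL61, 411 in OPCL61, 220.99 in NSC and 128.27 in OPC. Signals were divided by that percentile, a log2 shift of 1.95 between NSCL61 and NSC and of 1.68 between OPCL61 and OPC. The lowest spot well above background lay between 16.3 and 18.2 units, and the 99th percentile of 1000 negative control spots lay between 8.91 and 10.1 units. No mouse miRNA spot was saturated. The labels of the precursor lines matched their markers in part. miR-9-5p and miR-9-3p of the neural lineage were well above background in NSC, OPC and NSCL61 and not in OPCL61. Their scaled levels in NSCL61 were 20.7-fold and 65.8-fold under NSC. Neural miR-124-3p and miR-128-3p and oligodendrocyte-lineage miR-219-5p and miR-138-5p were well above background in NSC and not in OPC. Oligodendrocyte-lineage miR-338-3p was so in both precursor lines, and neural miR-125b-5p and miR-181a-5p were so in every line.

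miR-199a-3p was far brighter in NSCL61 than in the other lines. Its brighter probe had a mean processed signal of 413 ± 9.37 units in NSCL61 (SD over 19 spots), 34.8 ± 5.09 in OPCL61 (20 spots), 18.7 ± 4.59 in OPC (19 spots) and 4.95 ± 3.16 in NSC (20 spots), before scaling. The spots of NSCL61, from 399 to 433 units, did not overlap those of any other line, and OPC, with 10.2 to 27.1 units, overlapped OPCL61, with 22.5 to 43.4, and NSC, with up to 12.9. Of the spots kept, 19 of 19 were well above background in NSCL61, 20 of 20 in OPCL61, 14 of 19 in OPC and 0 of 20 in NSC. The dimmer probe gave the same order of lines, with means of 244 units in NSCL61, 19.1 in OPCL61, 7.91 in OPC and 0.847 in NSC, and it was well above background only in NSCL61 and in OPCL61, there with 11 of 20 spots. The level in OPC therefore rested on 1 of the 2 probes. A lower level in a culture can come from fewer cells that make a miRNA or from less of it per cell, and these cannot be told apart here.

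miR-199a-5p, the other arm of the same hairpins, was well above background in NSCL61 and in no other line. The brighter probe had a mean of 134 ± 6.26 units in NSCL61 (18 spots), against −0.0543 ± 1.95 in NSC (18 spots), −0.697 ± 2.20 in OPC (19 spots) and 5.05 ± 4.03 in OPCL61 (20 spots). The NSCL61 spots, from 119 to 144.69 units, stood apart from those of the other lines, whose highest spot was 12.1 units, in OPCL61. The dimmer probe was near the limit in NSCL61 itself, with 22.6 ± 3.31 units and 16 of 18 spots well above background.

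miR-199b-5p, from the hairpin within Dnm1, was well above background in NSCL61 and only just so in OPCL61. Its brighter probe had 142.9 ± 8.04 units in NSCL61 (20 spots), 18.4 ± 2.92 in OPCL61 (18 spots), 10.1 ± 1.85 in OPC (18 spots) and 4.47 ± 2.24 in NSC (18 spots). In OPCL61, 9 of 18 spots were well above background, which is exactly the 50% required, and with the dimmer probe none of 20 was. In OPC none of 18 spots was well above background, yet 15 of them exceeded the 99th percentile of the negative controls. In NSC 0 of 18 did so.

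miR-214-3p, made from the same transcript as the miR-199a arms of chromosome 1, was seen in NSCL61 alone. The brighter probe had 84.0 ± 5.59 units there (19 spots), and −0.747 ± 2.45 in NSC (19 spots), −1.54 ± 3.15 in OPC (18 spots) and −0.642 ± 3.25 in OPCL61 (20 spots). The dimmer probe gave 35.01 ± 4.92 units in NSCL61 with 19 of 19 spots well above background, and between −3.56 and −3.18 units in the other lines. The highest spot of the brighter probe outside NSCL61 was 4.33 units and the lowest in NSCL61 was 75.6, so that the groups of spots did not overlap.

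**Figure D1:**
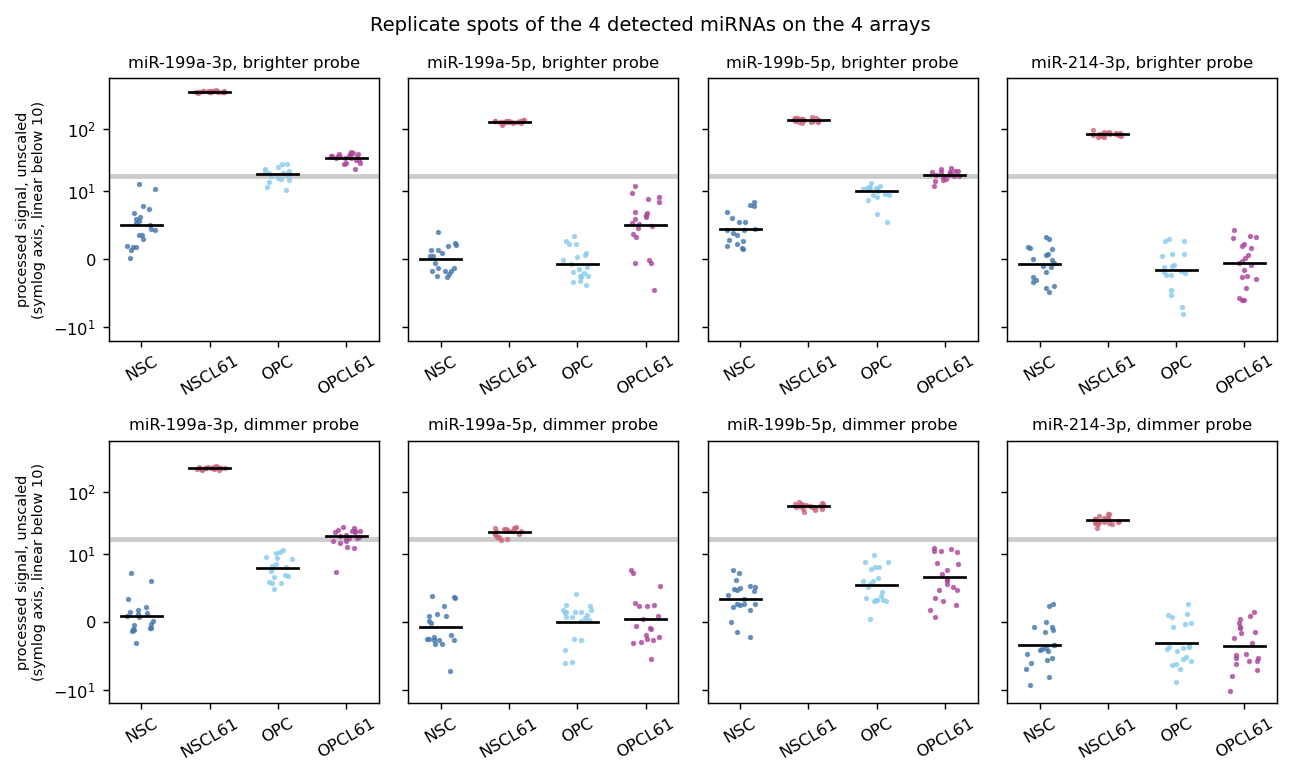
Processed signal of each replicate spot (vertical axis, unscaled, logarithmic above 10 and linear below) for both probes of the 4 detected arms in the 4 lines, with black bars at the means and a grey band at the lowest spots well above background of the arrays (16.3 to 18.2 units). NSCL61 sits above every other line in all 8 panels, the brighter miR-199a-3p probe also lies above it in OPCL61 and on it in OPC, and the brighter miR-199b-5p probe lies on it in OPCL61.

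**Figure D2:**
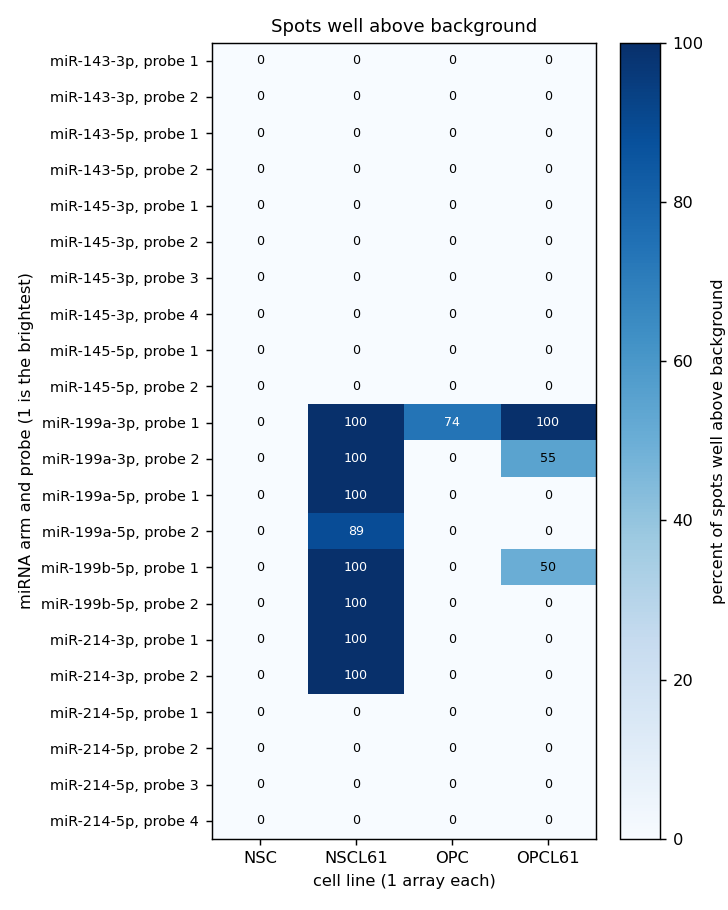
Percent of kept spots that were well above background (colour and number) for each of the 22 probes of the 9 arms (rows, probe 1 being the brightest of its arm) in the 4 lines (columns). All 8 probes of the 4 detected arms pass in NSCL61, 3 pass in OPCL61, 1 in OPC and none in NSC, and the probes of miR-143, miR-145 and miR-214-5p are at 0 in every line.

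NSCL61 was set against NSC to ask how the glioma-initiating cells differ from the stem cells they derive from. All 4 detected arms were well above background in NSCL61 and none was in NSC. Each difference is therefore a lower bound, set against the limit of detection in NSC, and no arm could count as lower. A difference or bound of at least 2-fold counted as a change. After scaling, miR-199a-3p was at least 5.95-fold higher in NSCL61 and miR-199b-5p at least 2.06-fold higher, and both counted as higher. The bounds for miR-199a-5p, at least 1.92-fold, and miR-214-3p, at least 1.21-fold, were under 2-fold. Over all 245 miRNAs well above background in either line, 11.8% counted as higher and 38.8% as lower, and the median log2 difference of the 153 measured in both was −1.03. The scaling decided how many arms counted. Without scaling all 4 did, at least 23.1-fold for miR-199a-3p, 7.46-fold for miR-199a-5p, 7.97-fold for miR-199b-5p and 4.68-fold for miR-214-3p, where 49% of all miRNAs counted as higher. With normexp background correction and its offset of 50 none of the 4 did, the bound for miR-199a-3p being 1.82-fold, where 5.71% of all miRNAs counted as higher.

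The same comparison in the oligodendrocyte precursor lineage set OPCL61 against OPC. miR-199a-3p was detected in each of them, and its scaled log2 level was 4.73 in OPCL61 and 5.57 in OPC. That is a difference of −0.84 (spot SE 0.08), or 1.79-fold lower in OPCL61, which was under 2-fold, and its sign turned without scaling, to 0.84. The OPC level lay near the limit of 5.39 on that array, and OPC spots under the array's lowest spot well above background were raised to it. Relative to the median of the 131 miRNAs measured in both lines, which was −0.33 after scaling, the difference was −0.51. miR-199b-5p was well above background in OPCL61 only, at a scaled log2 level of 3.90 that lay under the limit of 5.39 in OPC, so that no fold can be given. The other arms were well above background in neither line. None of the arms counted as changed, against 31 miRNAs higher (14.5%) and 44 lower (20.6%) among all those well above background in either line. The precursor lines themselves were compared as OPC against NSC. There miR-199a-3p was the single arm measured, at least 1.86-fold higher in OPC after scaling and at least 1.08-fold without it, which did not count, beside 14% higher and 11.5% lower among 200 miRNAs.

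The glioma-initiating lines were then set against each other, OPCL61 against NSCL61, and here all 4 detected arms were lower in OPCL61 by at least 2-fold. miR-199a-3p was 5.75-fold lower, with scaled log2 levels of 4.73 in OPCL61 and 7.25 in NSCL61 (difference −2.52, spot SE 0.05). miR-199b-5p was 3.53-fold lower (−1.82, spot SE 0.03), a value in which the OPCL61 spots below the limit were set to the limit. miR-199a-5p was at least 3.47-fold lower and miR-214-3p at least 2.18-fold lower, as neither was well above background in OPCL61. Detected in NSCL61 alone, these arms could count only as lower or as not changed, so their direction was fixed by detection. Of the 256 miRNAs well above background in either line, 12.1% counted as lower and 34.8% as higher, and the median difference of the 178 measured in both was 0.38. For miR-199a-3p the pair of probes gave nearly the same difference, −2.52 and −2.51. For miR-199b-5p the dimmer probe gave a bound of 1.53-fold. All 4 arms stayed lower by at least 2-fold under the other 4 scalings, but the share of all miRNAs that did so moved too. It was 19.1% with quantile normalization, 27.7% with the median, 40.6% with the 75th percentile of all probes and 39.5% without scaling. These last 2 are nearly the same setting, as that percentile shifted the arrays by a log2 of 0.07. With normexp background correction 1 of the 4 arms counted as lower (5.47% of all), and with the mean of all probes 2 (8.59%).

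**Figure D3:**
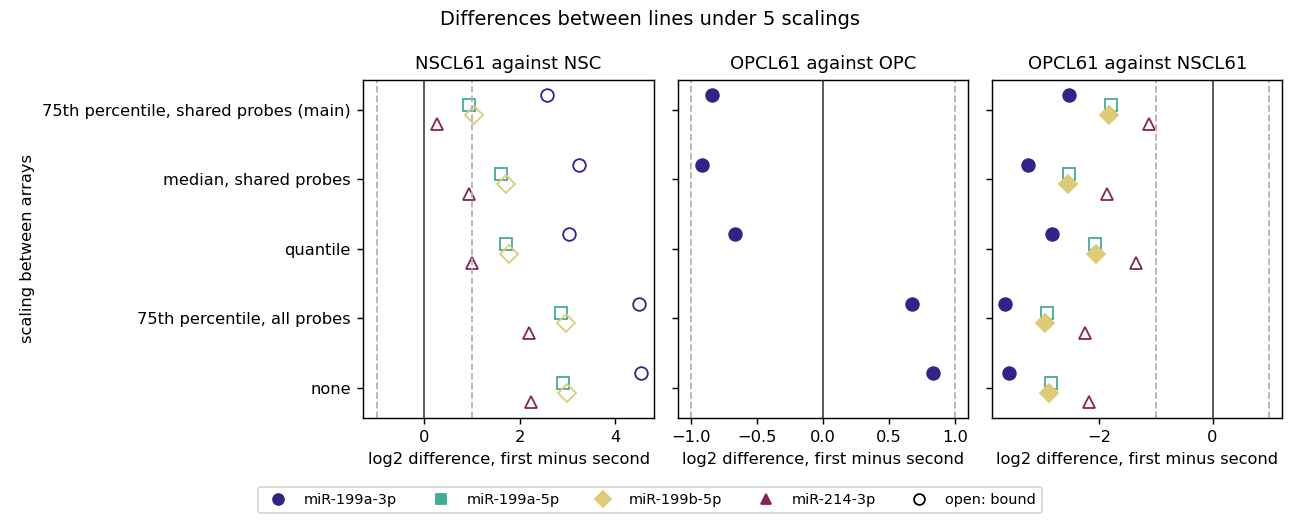
Log2 difference of the 4 detected arms (horizontal axis, first line minus second) in 3 comparisons under 5 scalings between arrays (rows), filled where the arm was measured in both lines and open where it is a bound, with dashed lines at 2-fold. The points of NSCL61 against NSC move to the right from the main scaling to no scaling, miR-199a-3p changes sign in OPCL61 against OPC (−0.84 to 0.84), and all 4 arms lie left of the dashed line in OPCL61 against NSCL61.

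The remaining 5 arms, miR-143-3p, miR-143-5p, miR-145-3p, miR-145-5p and miR-214-5p, were read by 14 probes, and 0 of the 188 to 197 spots kept per array were well above background in any line. Mean probe signals ran from −2.31 to 1.09 units in NSC, from −3.13 to 2.20 in OPC and from −4.02 to 1.73 in OPCL61. In NSCL61 they ran from −2.82 to 9.77, and the top value belonged to miR-143-3p. Its brighter probe had 9.77 ± 2.24 units in NSCL61 (19 spots), −1.91 ± 2.42 in NSC (19 spots), −1.47 ± 2.87 in OPC (20 spots) and −0.868 ± 2.50 in OPCL61 (20 spots). In NSCL61 11 of its 19 spots exceeded the 99th percentile of the negative controls and 2 exceeded the highest of them. The dimmer probe had 3.96 ± 2.77 units there and at most −0.853 in the other lines. miR-145-5p, which shares the precursor transcript of miR-143, had at most 0.473 units in NSCL61. These signals are below the limit of the array, so that absence and a low level are not distinguished.

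**Figure D4:**
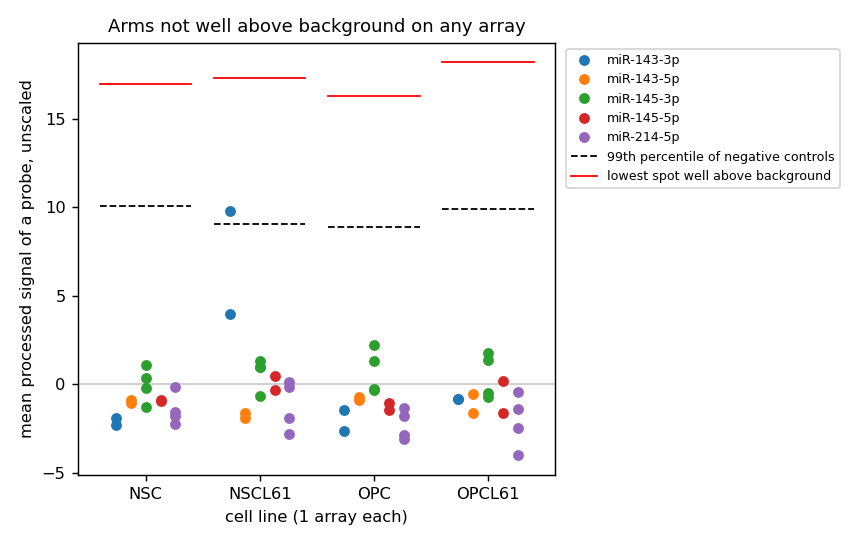
Mean processed signal (vertical axis, unscaled) of the 14 probes of the 5 arms that were well above background on no array, by line, with the 99th percentile of the negative controls (dashed) and the lowest spot well above background (red) of each array. Both miR-143-3p probes stand above the rest in NSCL61 (9.77 and 3.96 units), and no probe reaches the red lines.

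Other miRNAs abundant in cultured fibroblasts and mesenchymal cells were taken from a list of 18. The list was chosen with earlier results of these data known, so that its counts are descriptive and not independent of these data. In NSCL61 against NSC, 16 were well above background in at least 1 of the lines. Of these, 12 counted as higher and 0 as lower, where 11.8% of all miRNAs counted as higher. The median log2 difference was 2.07 over the 15 with a value, against −0.90 over all miRNAs tested, and 8 of the 16 were below background in NSC, so that their values are bounds or missing. These 8 could count only as higher or as not changed. The tumour-associated miR-21-5p was 14.3-fold higher, miR-29a-3p, a repressor of collagen transcripts, 25.5-fold, and miR-221-3p, which targets the cell cycle brake Cdkn1b, at least 14.1-fold. For miR-31-5p the bound was 22.5-fold. In OPCL61 against OPC, 8 of the 15 members well above background in either line counted as higher and 0 as lower, beside 14.5% higher among all miRNAs. The median was 1.05 over 14 members, 3 of the 15 being bounds or missing, against −0.07 over all. Those 3 were below background in OPC and likewise could not count as lower. miR-21-5p was 6.65-fold higher there, miR-29a-3p 3.84-fold, and miR-221-3p 2.19-fold. In OPCL61 against NSCL61, 4 of 16 were lower, namely miR-24-3p, miR-29a-3p, miR-31-5p and miR-221-3p, and 0 higher, beside 12.1% lower among all miRNAs, with a median of −0.32 against 0.45 over all. Without scaling the counts were 16 higher in NSCL61, where 49% of all miRNAs were higher, 15 higher in OPCL61 against OPC, where 55.6% were, and 13 lower in OPCL61 against NSCL61, where 39.5% were.

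Markers of other cell types that make these miRNAs or could accompany them were read on the same arrays. The fibroblast, pericyte and smooth muscle markers included miR-143-3p and miR-145-5p, both below background in all 4 lines, beside the 4 detected arms. Of the endothelial markers, miR-126-3p was well above background in NSCL61 only and miR-126-5p in no line. The 6 blood and microglia markers, the 4 skeletal and heart muscle markers and the liver marker miR-122-5p were below background in every line. Of 6 epithelial miRNAs, 5 of the miR-200 family were below background in every line and miR-205-5p was well above it in NSCL61, at least 4.30-fold higher than in NSC. Neural and oligodendrocyte-lineage miRNAs were mostly lower in the glioma-initiating lines than in their precursors after scaling. In NSCL61 against NSC, 5 of 6 neural miRNAs counted as lower (median log2 difference −3.08) and so did 3 of 3 of the oligodendrocyte lineage (median −1.59), where 38.8% of all miRNAs were lower. In each of these groups 1 value is a bound. In OPCL61 against OPC, 3 of 4 neural miRNAs counted as lower (median −3.30, 2 of the 4 values being bounds), where 20.6% of all were. The single oligodendrocyte-lineage miRNA read there, miR-338-3p, was at least 3.62-fold lower. On unscaled signals, 6.94% of all miRNAs were lower by at least 2-fold in NSCL61 than in NSC and 49% were higher. Among the 6 neural miRNAs, 3 were lower and 1 higher, and 1 of the 3 oligodendrocyte-lineage miRNAs was lower. The oligodendrocyte-lineage median turned to 0.37, against 0.95 over all miRNAs tested. In OPCL61 against OPC, also unscaled, 1.87% of all were lower and 55.6% higher. There 2 of the 4 neural miRNAs were lower and 1 higher, and miR-338-3p did not count as lower. miR-125b-5p, the neural miRNA not lower in either comparison after scaling, is also on the mesenchymal list. The part of other cells in the signals of NSCL61 was not tested.

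The miRNAs whose profile was nearest to that of miR-199a-3p were found by the Euclidean distance between scaled log2 levels over the 4 arrays, each centred on its own mean, among 270 other miRNAs well above background on at least 1 array. Levels below background enter at the limit of their array, so the distance describes mainly the NSCL61 value and the pattern of detection. The nearest 5 outside the arms themselves were miR-183-5p at 0.51, miR-182-5p at 0.64, miR-205-5p at 0.68, miR-7a-5p at 0.71 and miR-31-3p at 0.81. miR-183-5p had an unscaled signal of 314 units in NSCL61 and 41.6 in OPCL61 and was below background in NSC and OPC. miR-205-5p had 298 units in NSCL61 and was below background in the other 3 lines. miR-199b-5p ranked 7 at a distance of 1.18, miR-199a-5p 9 at 1.27 and miR-214-3p 28 at 1.79.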

How the data were processed

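Per the labels' protocols, 100 ng of total RNA per line was labelled with Cy3, 1 array per line. Agilent Feature Extraction 10.7.3.1 extracted the spots, per the submitters' processing notes. The deposited spot intensity was background-subtracted and spatially detrended but not normalized between arrays, the 4 arrays shared 1 slide and scan, and probe positions refer to mm9, all per the file headers. The deposited value table of the series held the same intensities (largest difference 0).

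Outlier spots (1842 to 2365 mouse spots per array) were left out. Spot values were raised to the array's lowest spot well above background where they lay under it, and their log2 values were averaged. Arrays were scaled by the 75th percentile over 182 probes well above background on all 4. Detection of a probe required 50% or more of its kept spots to be well above background, and that of a miRNA required 1 such probe. The brightest of a miRNA's probes gave its level. A miRNA counted as changed at 2-fold and more than 2 spot SEs or, where 1 line was below background, at a bound of 2-fold. The bound set the higher level against the larger of the lowest detected probe and the probe's own level in the dim line. Named are all 9 arms, the 5 nearest profiles and members of the lists, of which up to 4 with the largest changes were eligible per list. The arms and lists were chosen with earlier results of these data known. Alternatives used other scalings, normexp (limma 3.58.1, R 4.3.3), other detection rules and other probe summaries. The comparison was tested on simulated data, with changes set only in miRNAs well above background on all 4 arrays. None of the arms was so, and the simulation did not cover them. Precision is limited by having 1 array per line, and no p-value is given. miRNA names follow the array design.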

Additional observations from a re-analysis of the deposited data

Results flagged for a closer look

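miR-199a-3p had opposite signs in the lineages after scaling. The log2 difference of glioma-initiating minus precursor cells was at least 2.57 in the neural stem cell lineage and −0.84 in the oligodendrocyte precursor lineage, where it was under 2-fold. The OPC level behind the second value lay near the limit of detection, with its dimmest spots raised to that array's lowest spot well above background. Without scaling the values were at least 4.53 and 0.84, of the same sign. With 1 array per line the difference between the lineages was not tested.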

How the results depend on the processing

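The number of arms that counted as changed depended on the setting. In NSCL61 against NSC it was 2 higher, where 11.8% of all miRNAs counted as higher. It became 4 with quantile normalization (18.4% of all), the software's total signal per miRNA (25.7%), the 75th percentile of all probes (48.2%) and no scaling (49%). With the median as the scale (20%), and with any spot (13.8%) or all spots (17.9%) required to be well above background, it was 3. It was 1 with the mean of all probes (10.2%) or the dimmest probe (12.1%, chosen after seeing the data), and 0 with normexp (5.71%). Keeping outlier spots left it at 2 (11.8%). The offset of normexp adds a constant to every signal and so narrows ratios before scaling, though not each scaled difference. In OPCL61 against OPC it was 0, and 1 lower (miR-199a-3p) with normexp (21% of all lower) and with the mean of all probes (23.8%). The value of miR-199a-3p, −1.03 and −1.10 under those settings, was 0.84 without scaling and 0.68 with the 75th percentile of all probes. In OPC against NSC it was 0, and 1 higher (miR-199a-3p) with any spot well above background (14.4% of all higher) and with the total signal (17.1%). In OPCL61 against NSCL61 it was 4 lower, and 1 with normexp (5.47% of all lower), 2 with the mean of all probes (8.59%) and 1 with the dimmest probe (9.95%). Under the settings where it was 4, the share of all miRNAs lower ran from 10.9% to 40.6%. The cause of these moves was not tested. The differences that counted under the main setting kept their sign under each alternative that gave a value. For bounds this was fixed by the rule, because a bound against the detected line is given no value. The differences measured in both lines under the main setting were those of miR-199a-3p and miR-199b-5p in OPCL61 against NSCL61, and both stayed negative. The arms were well above background in 7 combinations of arm and line, and in 5 when all spots had to pass or with the dimmest probe. No paired analysis was possible because each line had 1 array.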

Other observations

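Below the limit of detection, the arms differed in how their signals lay against the negative controls. For miR-199b-5p the brighter probe exceeded the 99th percentile of the negative controls in 15 of 18 spots of OPC and 0 of 18 of NSC. For miR-199a-5p it did so in 1 of 20 spots of OPCL61, and in 0 of 18 of NSC and 0 of 19 of OPC. The software's own gene detection flag was used only in the setting with the total signal per miRNA. It was set for miR-199a-3p in NSCL61, OPC and OPCL61, for miR-199b-5p in NSCL61 and OPCL61, and for miR-199a-5p and miR-214-3p in NSCL61 alone.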
